A study of Mus musculus with 12 samples.

Results

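Collagens are the proteins of the extracellular matrix that wind 3 chains into a triple helix, and the collagen chains described here were all protein-coding mouse genes whose symbol is Col followed by a type number, the letter a and a chain number. The expression tables held 44 such genes among 43432 gene identifiers, which were all 44 that the GENCODE annotation lists. They were measured in neural stem cells, or NSCs, taken from the adult subventricular zone of wild-type male C57BL/6 mice aged 6 to 8 weeks, grown as a monolayer on laminin with EGF and bFGF. Folic acid was given for 4 days at a low dose of 1.5 µM (LF), a control dose of 10 µM (MF) and a high dose of 80 µM (HF). Polysome mRNA, from sucrose gradient fractions with several ribosomes per mRNA, and total mRNA were sequenced after poly(A) selection in 2 biological replicates, which gave 12 libraries in 6 groups. The labels do not say whether the replicates came from separate animals or cultures, so p-values measure only the spread between these libraries, which may be technical.

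Each collagen chain carries a repeat of glycine followed by 2 other residues, and glycine is the only residue small enough to sit inside the triple helix. Many of the residues between the glycines are proline. Fibrillar collagens (types I, II, III, V, XI, XXIV and XXVII) form cable-like fibrils, whereas type IV builds the network of basement membranes, the sheets on which cells rest. In the subventricular zone, NSCs contact a basement membrane that extends from blood vessels. Before a trimer leaves the endoplasmic reticulum, its prolines and lysines are hydroxylated, and dedicated chaperones such as HSP47 hold the helix together.

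The repeat was visible in the coding sequence of all 44 chains, although the symbol alone had chosen them. The longest unbroken run of glycine-X-Y triplets spanned between 23 triplets, in Col26a1, and 344 triplets, in Col3a1. Of the 12906 other protein-coding genes tested for polysome association, 21 had a run of 10 triplets or more. Glycine took a median of 24.2% of the codons in the 44 chains and 6.28% in the other genes, and proline took 16.2% in the chains and 5.53% in the other genes. The first 60 coding bases of the longest run are given for the most abundant chain (Col1a2), the most abundant basement membrane chain (Col4a1), the chain whose dose difference passed in every alternative tried between HF and LF (Col8a1) and the chain with the largest polysome enrichment that passed the test (Col26a1). Capitals mark the glycine codons. All positions are mm10, and the stretches were read 5′ to 3′ from GENCODE M21 transcripts after splicing, between the genomic positions given.
Col1a2, chr6:4512406-4515486, plus strand, exons 6 to 8: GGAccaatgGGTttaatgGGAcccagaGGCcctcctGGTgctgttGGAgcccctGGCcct
Col4a1, chr8:11247054-11267614, minus strand, exons 2 to 3: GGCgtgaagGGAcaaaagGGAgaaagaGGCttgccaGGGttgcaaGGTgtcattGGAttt
Col8a1, chr16:57628033-57628092, minus strand, exon 4: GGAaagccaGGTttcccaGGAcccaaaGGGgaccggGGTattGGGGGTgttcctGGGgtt
Col26a1, chr5:136754964-136757641, minus strand, exons 5 to 6: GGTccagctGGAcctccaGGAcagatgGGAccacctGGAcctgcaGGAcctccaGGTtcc
In these windows of 20 codons, proline took 8 codons in Col26a1, 6 in Col1a2, 4 in Col8a1 and 1 in Col4a1. Col8a1 had 8 glycine codons and the other three had 7, because 1 Col8a1 triplet starts with glycine directly after a glycine codon.

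Library totals lay between 24193468 and 28170296 counts in polysome mRNA and between 20506797 and 23593252 counts in total mRNA. Collagen chains took between 0.133% and 0.228% of the counts in polysome libraries and between 0.280% and 0.332% in total libraries. The second LF polysome library stood apart, with 0.133% of counts on collagen chains where the other 5 polysome libraries had 0.192% or more, and its difference from its replicate was the largest of the 6 pairs (chi-square per degree of freedom of 134.7, against 2.70 to 22.4 in the other pairs). Counts of calls that include LF polysome mRNA are therefore also given without it. The NSC markers Nes and Sox2 reached at least 357 and 100 TPM (a transcript level scaled for length and library size) in every total library, while Gfap, also a marker of these cells, stayed at or below 1 TPM in all 12 libraries. The markers of endothelium summed to at most 4.65 TPM and those of microglia to at most 13.6 TPM in any library. Sums were higher for markers of ependyma (at most 37.3 TPM), neurons (at most 169 TPM) and the oligodendrocyte lineage (at most 207 TPM). In total mRNA, the neuron marker Map2 had 120 to 132 TPM and the oligodendrocyte lineage marker Olig2 had 105 to 130 TPM. Markers of mural cells and fibroblasts are described below.

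Most collagen mRNA in NSCs came from a few chains (levels are in TPM, which accounts for transcript length). Of the 44 chains, 21 were under 1 TPM in all 12 libraries, Col19a1 among them had 0 counts in every library (which allows up to 3 counts in each, by counting error only), and 18 were at 1 TPM or more in all 12. The 12 most abundant chains in total mRNA held 90.8% of the summed collagen TPM. Summed over the chains, polysome mRNA held between 385 and 646 TPM and total mRNA between 839 and 978 TPM. These are bulk samples, in which fewer cells of a type and less RNA per cell cannot be told apart.

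**Figure D1:**
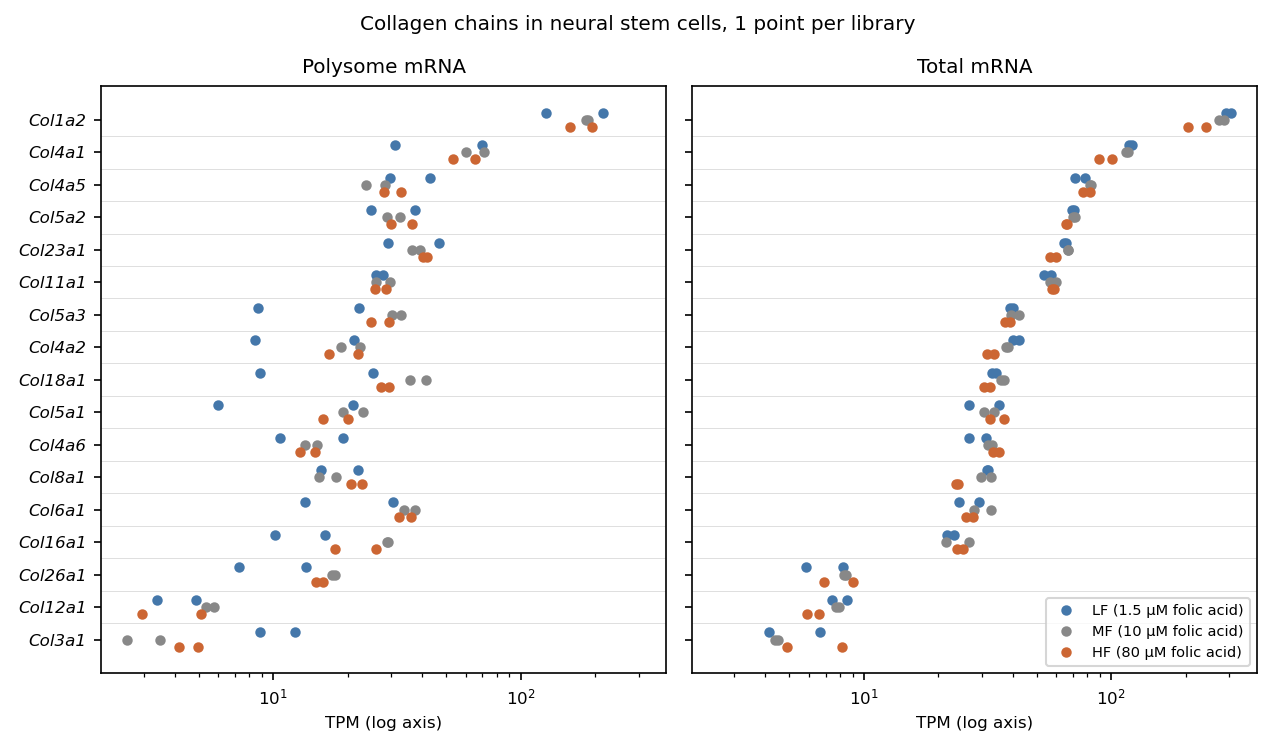
TPM (log axis) of the 17 collagen chains with a mean of 5 TPM or more in any group, in polysome mRNA (left) and total mRNA (right), with 1 point per library coloured by folic acid dose. Col1a2 lies highest in both fractions, and for several chains a single LF polysome library lies far below all others.

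Fibrillar chains spanned the whole range of levels. Col1a2, which encodes the minor chain of type I collagen, was the most abundant collagen mRNA. In polysome mRNA it had 215 and 127 TPM in LF, 187 and 183 TPM in MF, and 157 and 195 TPM in HF. Total mRNA held 291 and 306 TPM of Col1a2 in LF, 273 and 285 TPM in MF, and 205 and 240 TPM in HF. The partner gene Col1a1, which supplies the other chains of the type I trimer, was at or below 0.81 TPM in every library. The ratio of Col1a2 to Col1a1 TPM had a median of 429 in polysome libraries (295 to 633) and of 431 in total libraries (377 to 647), so the imbalance was present in both fractions. Col1a1 had between 20 and 70 counts per library, so its level rests on few reads. Among the type V chains, which seed and limit the width of fibrils, Col5a2 averaged 31.6 ± 4.77 TPM in polysome mRNA and 68.8 ± 2.47 TPM in total mRNA (SD, n = 6 each). Col5a3 averaged 24.6 ± 8.71 TPM in polysome mRNA and 39.5 ± 1.72 TPM in total mRNA, and Col5a1 averaged 17.5 ± 6.10 TPM in polysome mRNA and 32.5 ± 3.60 TPM in total mRNA. All 3 type V chains were thus well expressed. Col11a1, a cartilage fibril chain closely related to type V, averaged 27.3 ± 1.62 TPM in polysome mRNA and 57.2 ± 2.17 TPM in total mRNA. Col2a1, the main cartilage collagen, did not exceed 0.52 TPM in any library, and Col3a1, the type III chain of soft tissues, lay between 2.56 and 12.3 TPM in polysome mRNA and between 4.12 and 8.14 TPM in total mRNA.

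Of the 6 basement membrane chains, 4 were well expressed. Col4a1 averaged 58.4 ± 14.8 TPM in polysome mRNA and 110.0 ± 12.6 TPM in total mRNA, and its partner Col4a2 averaged 18.3 ± 5.24 TPM in polysome mRNA and 37.2 ± 3.99 TPM in total mRNA (SD, n = 6 each). The Col4a1 to Col4a2 ratio had a median of 3.19 in polysome libraries and of 3.01 in total libraries, where it stayed between 2.79 and 3.05. Col4a5 and Col4a6, the X-linked pair, averaged 30.9 ± 6.58 and 14.3 ± 2.86 TPM in polysome mRNA, and 78.8 ± 4.43 and 31.9 ± 2.98 TPM in total mRNA. Col4a3 and Col4a4, the pair found in the filter of the kidney, were at or below 0.40 TPM in every library. The 3 pairs each lie head to head on opposite strands. The annotated transcripts of Col4a1 and Col4a2 share 22 bases at their starts (chr8:11312805-11312826), 71 bases separate Col4a3 from Col4a4, and 1308 bases separate Col4a5 from Col4a6.

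Chains of the other classes were unevenly represented as well. Col6a1, part of the beaded microfibrils of type VI, averaged 30.6 ± 8.77 TPM in polysome mRNA and 27.9 ± 2.87 TPM in total mRNA. Its partner chains Col6a2 and Col6a3 reached at most 3 and 0.48 TPM in any library. The remaining type VI chains, Col6a4, Col6a5 and Col6a6, reached at most 0.24, 0.31 and 0.05 TPM. The Col6a1 to Col6a2 ratio was 12.9 in the median polysome library (12.1 to 16.2) and 22.9 in the median total library (20.9 to 29.4), with no overlap. Col23a1, a collagen that spans the cell membrane, averaged 38.8 ± 5.96 TPM in polysome mRNA and 63.4 ± 4.29 TPM in total mRNA. Col18a1, a basement membrane proteoglycan whose tail is released as endostatin, averaged 27.9 ± 11.1 TPM in polysome mRNA and 33.8 ± 2.25 TPM in total mRNA, although its locus overlaps Slc19a1 on the other strand, which had a mean of 387 counts beside 2313 for Col18a1. Col8a1, a short-chain collagen of vessel walls and of the membrane behind the cornea, averaged 19.1 ± 3.26 TPM in polysome mRNA and 28.9 ± 4.04 TPM in total mRNA. Among the FACIT chains, which decorate fibrils without forming them, Col16a1 averaged 21.3 ± 7.76 TPM in polysome mRNA and 23.6 ± 2.01 TPM in total mRNA. Col12a1 averaged 4.56 ± 1.13 TPM in polysome mRNA and 7.35 ± 0.967 TPM in total mRNA, and Col9a3 averaged 0.570 ± 0.396 TPM in polysome mRNA and 1.05 ± 0.154 TPM in total mRNA. In total mRNA, Col4a5, Col5a2, Col23a1 and Col11a1 formed a close group between 53.5 and 82.5 TPM in which neighbours in the order overlapped, as did Col5a3, Col4a2, Col18a1, Col5a1, Col4a6, Col8a1, Col6a1 and Col16a1 between 21.5 and 42.4 TPM.

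To examine how folate dose affected collagen mRNA, HF was compared with MF in total mRNA. Of the 44 chains, 30 passed the filter on low counts and were tested (edgeR quasi-likelihood test over 13912 genes, called at an adjusted p-value under 0.05 and a fold change over 1.2). Col8a1 alone passed, and it was lower in HF. It had 23.7 and 23.9 TPM in HF, against 29.7 and 32.5 TPM in MF. The HF libraries lay below both MF libraries, and the log2 fold change was -0.38 (SE 0.059, adjusted p = 0.0135). Over all genes, 0.0863% were called, 0.0575% lower and 0.0288% higher. Col4a2 had a log2 fold change of -0.32 (adjusted p = 0.0511) and Col4a1 of -0.28 (adjusted p = 0.0785), which missed the threshold. Of the 30 chains, 23 had a negative fold change and the median was -0.16, beside -0.0018 for all genes tested. The Col8a1 call was lost without the first or the second MF library or without the first HF library (log2 fold changes of -0.45, -0.30 and -0.36, adjusted p = 0.0803, 0.562 and 0.217), each of which leaves 1 library in a group whose spread is taken from the other groups. DESeq2 called Col4a1, Col4a2 and Col8a1 in the same comparison, and 0.253% of all genes.

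Between the extreme doses, HF against LF, 5 of the 30 chains were called in total mRNA, 4 lower and 1 higher in HF. Over all genes 1.79% were called, 0.985% lower and 0.805% higher. Col8a1 had 23.7 and 23.9 TPM in HF, against 31.5 and 31.8 TPM in LF (log2 fold change -0.42, SE 0.059, adjusted p = 0.000885). Col4a1 had 88.9 and 100.6 TPM in HF, against 117.8 and 121.2 TPM in LF (log2 fold change -0.34, SE 0.055, adjusted p = 0.00268). Its partner Col4a2 had 31.6 and 33.6 TPM in HF, against 42.2 and 40.0 TPM in LF (log2 fold change -0.36, SE 0.060, adjusted p = 0.00314). For all 3 genes both HF libraries lay below both LF libraries. Col28a1, a von Willebrand domain collagen known from peripheral nerve, had 1.70 and 2.16 TPM in HF, against 3.17 and 3.43 TPM in LF (log2 fold change -0.79, SE 0.16, adjusted p = 0.0108). Col27a1, a fibrillar chain of the cartilage growth plate, was the chain that rose, with 5.05 and 4.82 TPM in HF against 3.16 and 2.84 TPM in LF (log2 fold change 0.60, SE 0.14, adjusted p = 0.0322). Col4a6 had an adjusted p of 0.0274 but a log2 fold change of 0.25, below the fold threshold, so the basement membrane chains did not share a direction. Col1a2 had 205 and 240 TPM in HF and 291 and 306 TPM in LF, a log2 fold change of -0.44 that did not pass (adjusted p = 0.119). DESeq2 called Col1a2, Col4a1, Col4a2 and Col8a1, and 1.42% of all genes.

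**Figure D2:**
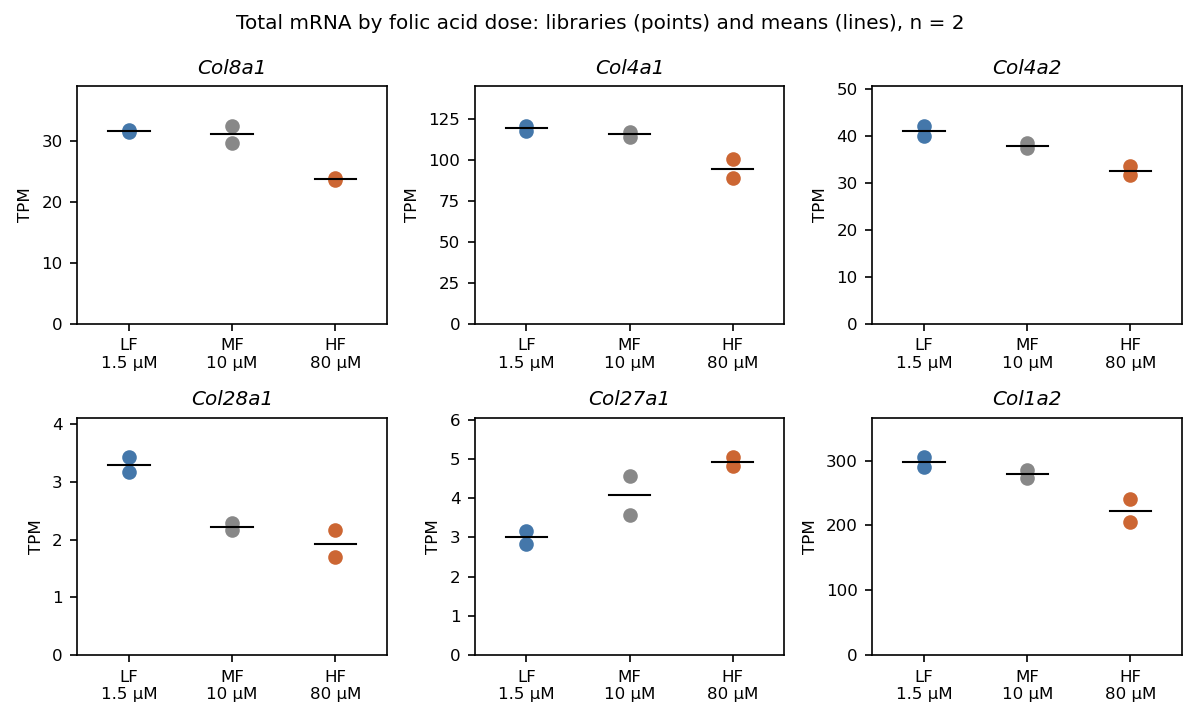
TPM in total mRNA of the 5 chains called between HF and LF and of Col1a2, the most abundant chain, by folic acid dose from 1.5 to 80 µM. Points are libraries and lines are group means (n = 2 per dose). Both HF points lie below all LF and MF points for Col8a1, Col4a1, Col4a2 and Col1a2, and above all others for Col27a1.

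The call of Col8a1 between HF and LF held in all 12 alternatives, with log2 fold changes between -0.45 and -0.39. Col4a1 and Col4a2 were each called in 11 of 12 and lost without the first HF library (adjusted p = 0.0517 for Col4a1 and 0.0732 for Col4a2). Col28a1 was called in 9 of 12 and Col27a1 in 6 of 12. Markers of mural cells and fibroblasts, which also make these collagens, moved in the same direction. Of 19 markers 13 were tested, and 6 (Lum, Fbln5, Ogn, Tagln, Pdgfrb and Islr) were lower in HF than in LF, beside 0.985% of all genes. None was higher, beside 0.805% of all genes. The tested markers had a median log2 fold change of -0.51. Their summed level in total mRNA was 307 to 335 TPM in LF, 288 to 302 TPM in MF and 205 to 246 TPM in HF. Of the 19 markers, Rgs5, Cspg4, Myh11, Des, Kcnj8, Abcc9 and Tbx18 were under 0.5 TPM in all 12 libraries, whereas the smooth muscle markers Acta2 and Tagln lay between 180 and 414 TPM and between 134 and 298 TPM in polysome mRNA, and between 28.8 and 56.5 TPM and between 23.4 and 40.7 TPM in total mRNA. The pericyte marker Pdgfrb lay between 15.5 and 36.0 TPM in polysome mRNA and between 13.3 and 21.7 TPM in total mRNA. Between HF and MF, Islr was the only marker of this list called, beside 0.0863% of all genes, and it was lower in HF. The part of such cells in the collagen differences was not tested.

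In LF against MF no collagen chain was called in total mRNA by edgeR, DESeq2 or limma voom, and 5 of 30 had an unadjusted p under 0.05, beside 6.27% of all genes. Over all genes 0.00719% were called. The median log2 fold change of the chains was -0.041, beside 0.0012 for all genes. The chains nearest to the threshold were Col28a1, with 3.17 and 3.43 TPM in LF against 2.28 and 2.16 TPM in MF (log2 fold change 0.59, adjusted p = 0.501), and Col27a1, with 3.16 and 2.84 TPM in LF against 4.58 and 3.56 TPM in MF (log2 fold change -0.51, adjusted p = 0.556). Col8a1 had 31.5 and 31.8 TPM in LF and 29.7 and 32.5 TPM in MF, which overlapped. Leaving out the first LF library, 2 chains were called (Col27a1 and Col5a1).

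In polysome mRNA, replicates varied more than in total mRNA (biological coefficient of variation of 0.231 in polysome and 0.0433 in total mRNA), and no collagen chain was called between doses by edgeR or limma voom among the 27 tested. In HF against MF, 1 of 27 chains had an unadjusted p under 0.05, beside 3.37% of all genes, DESeq2 called none, and 0% of all 13433 genes were called. In LF against MF, 8 of 27 chains had an unadjusted p under 0.05, beside 17.3% of all genes, and 0.0223% of all genes were called. DESeq2 called Col16a1 and Col18a1 there, and 5.07% of all genes. In HF against LF, 3 of 27 chains had an unadjusted p under 0.05, beside 14% of all genes, and 0.0149% of all genes were called. DESeq2 called Col16a1 and Col28a1 there, and 2.84% of all genes. Col16a1 had 16.2 and 10.2 TPM in LF, 29.0 and 28.8 TPM in MF, and 17.8 and 26.1 TPM in HF, so both LF libraries lay below all others. Its log2 fold change in LF against MF was -1.58 (SE 0.40, adjusted p = 0.171). Col8a1 had 15.6 and 22.04 TPM in LF, 15.3 and 17.97 TPM in MF, and 20.6 and 22.9 TPM in HF. Thus the Col8a1 level in HF polysome mRNA was not below that in MF (log2 fold change 0.40, SE 0.24, adjusted p = 0.948), whereas in total mRNA it was.

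Without the second LF polysome library, which leaves 1 library in that group, 4 chains were called in LF against MF (Col16a1, Col18a1 and Col5a3 lower, Col4a5 higher in LF) and 3 in HF against LF (Col16a1, Col28a1 and Col8a1, all higher in HF), beside 6.83% and 15.4% of all genes in the same fits. Leaving out the first LF polysome library instead gave 19 calls in LF against MF and 13 in HF against LF, beside 50.5% and 39.3% of all genes. The values for Col16a1 without the second library were -1.08 in LF against MF (adjusted p = 0.00396) and 0.77 in HF against LF (adjusted p = 0.0148).

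To ask whether the dose changed how much of each mRNA was on polysomes, the polysome-to-total ratio, termed translation efficiency (TE), was compared between doses in a fit of all 12 libraries, in which 33 chains were tested. No chain was called by edgeR or limma voom in any of the 3 comparisons. In HF against MF, 4 of 33 chains had an unadjusted p under 0.05, beside 4.15% of all genes, DESeq2 called none, and 0% of all 14421 genes were called. In LF against MF, 9 of 33 chains had an unadjusted p under 0.05, beside 15.8% of all genes, and 0.236% of all genes were called. DESeq2 called Col16a1 and Col3a1 there, and 5.06% of all genes. In HF against LF, 3 of 33 chains had an unadjusted p under 0.05, beside 14.7% of all genes, and 0.0971% of all genes were called. DESeq2 called Col16a1 and Col28a1 there, and 5.81% of all genes. Col28a1 was nearest to the threshold. Its polysome level was 1.54 and 1.34 TPM in LF, 2.04 and 2.40 TPM in MF, and 2.56 and 4.14 TPM in HF, while its total level was 3.17 and 3.43 TPM in LF, 2.28 and 2.16 TPM in MF, and 1.70 and 2.16 TPM in HF. The group means of the 2 fractions thus ran in opposite directions with dose, and the log2 difference in TE between HF and LF was 2.01 (SE 0.34, adjusted p = 0.0563). At single doses, Col28a1 was lower in polysome than in total mRNA in LF (log2 ratio -0.91, adjusted p = 0.00935) and higher in HF (1.10, adjusted p = 0.00299), and in MF its log2 ratio of 0.31 did not pass (adjusted p = 0.297). Without the second LF polysome library its log2 ratio in LF was -0.85 (adjusted p = 0.0129). The counts behind these levels lay between 92 and 292 per polysome library and between 95 and 201 per total library.

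Col8a1 had a log2 difference in TE of 0.77 in HF against MF (SE 0.25, adjusted p = 0.982) and of 0.63 in HF against LF (SE 0.25, adjusted p = 0.285). Without the second LF polysome library, TE was called for 2 chains in HF against MF (Col8a1, 0.77, and Col3a1, 0.82), for 6 in LF against MF (Col16a1, Col18a1 and Col5a3 lower, Col3a1, Col4a5 and Col4a6 higher in LF) and for 6 in HF against LF (Col8a1, Col16a1 and Col28a1 higher, Col4a5, Col4a6 and Col27a1 lower in HF). In these fits 2.99%, 6.76% and 17.2% of all genes were called. Without the first, 2, 18 and 13 chains were called, beside 2.88%, 46.2% and 37.6% of all genes. The mural cell and fibroblast markers summed to 512 to 663 TPM in LF, 601 to 619 TPM in MF and 815 to 951 TPM in HF polysome mRNA. Acta2 and Tagln made up much of these sums, and single markers ran both ways in polysome HF against LF. Log2 fold changes went from -0.62 for Lum to 1.79 for Cspg4 (adjusted p = 0.407 and 0.289), which was under 0.5 TPM in all 12 libraries. Tagln had 1.04 (adjusted p = 0.158). The part of these markers in the collagen values was not tested. For Col3a1, the transcript length that RSEM assigned varied 2.79-fold between libraries (1992 to 5564 bases), so its TPM and its counts can differ in direction, as they did between HF and MF in total mRNA. There its TPM was 8.14 and 4.90 in HF and 4.37 and 4.49 in MF, whereas its log2 fold change in counts was -0.36 (adjusted p = 0.325).

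More collagen chains differed between the fractions than between any 2 doses, and the same held for all genes. Averaged over the 3 doses, 24 of the 33 tested chains differed between polysome and total mRNA, 20 lower and 4 higher in polysome mRNA. Over all genes 71% were called, 38.4% lower and 32.7% higher. The share of chains called in either direction was thus near that of all genes. The median log2 ratio of the chains was -0.54, beside -0.086 for all genes. At single doses, 20 chains were called in LF, 16 in MF and 14 in HF (53.6%, 55.2% and 56.4% of all genes), with medians of -0.91, -0.59 and -0.37. The LF count was 4 when the 4 LF libraries were fitted alone and 13 without the second LF total library. Without the second LF polysome library, 21 chains were called in LF (62.7% of all genes) and 25 over the doses (73.8% of all genes), and the median ratio over the doses was -0.43. Scaling sets these ratios within each library, so they give relative and not absolute amounts on polysomes. Unless said otherwise, log2 ratios between the fractions were fitted on counts and can differ from the ratio of the TPM given beside them.

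**Figure D3:**
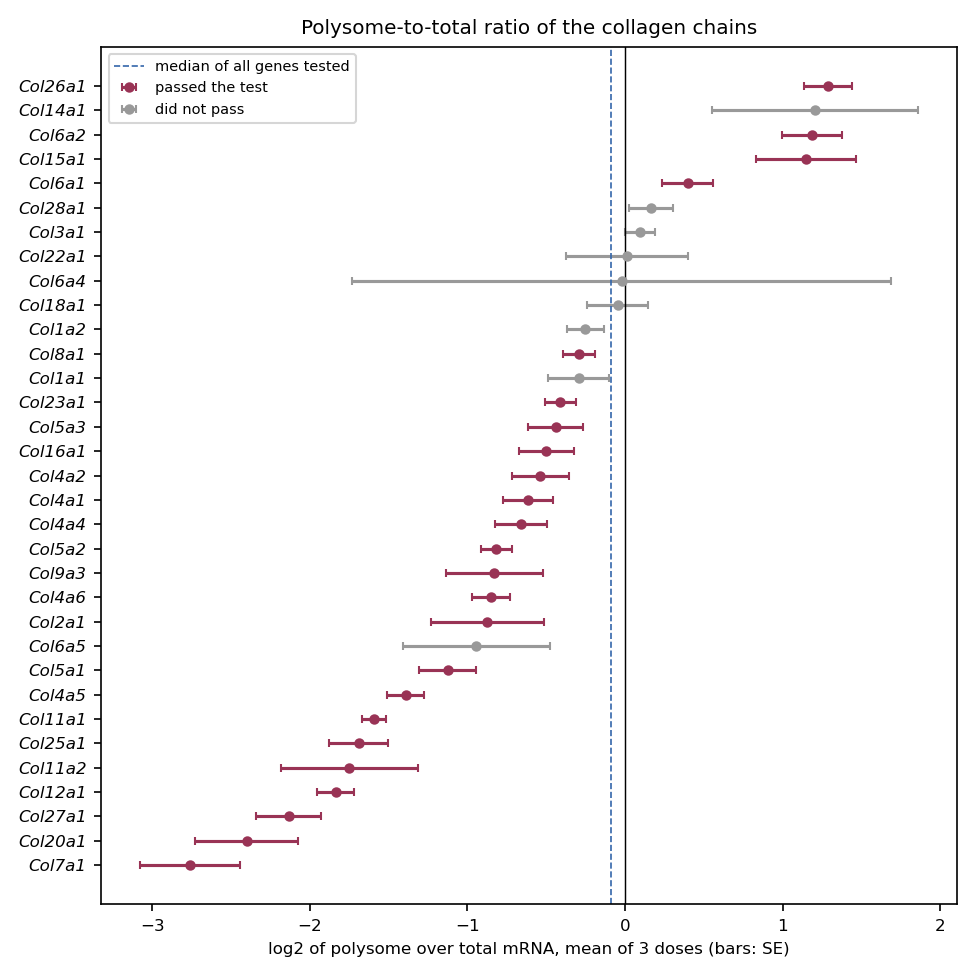
Log2 ratio of polysome to total mRNA over the 3 doses for the 33 collagen chains tested. Points are estimates from the fit of 12 libraries, bars are standard errors, and colour shows whether the chain passed the test. Col26a1, Col6a2, Col15a1 and Col6a1 lie to the right of 0 and passed, and 20 chains lie to the left and passed.

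Fibrillar chains were mostly lower in polysome mRNA, with 7 of 10 tested called lower, beside 38.4% of all genes, none higher and a median log2 ratio of -0.84. Col11a1 had 25.9 and 27.9 TPM in LF, 26.1 and 29.6 TPM in MF, and 25.7 and 28.7 TPM in HF polysome mRNA. The same chain had 57.1 and 53.5 TPM in LF, 56.7 and 59.98 TPM in MF, and 58.4 and 57.7 TPM in HF total mRNA. Its TPM ratio was therefore almost the same at each dose, with a log2 ratio of mean TPM of -1.07. The fit on counts gave a log2 ratio of -1.59 over the doses (SE 0.075, adjusted p = 4.41e-08). Col27a1 had 0.33 to 0.94 TPM in polysome mRNA and 2.84 to 5.05 TPM in total mRNA, a log2 ratio of mean TPM of -2.58. Its log2 ratio in counts was -2.13 (SE 0.21, adjusted p = 5.35e-06). Col5a1, Col5a2 and Col5a3 had log2 ratios of -1.12, -0.82 and -0.44. The abundant Col1a2 had a log2 ratio of -0.25 and did not pass (adjusted p = 0.0741), nor did Col3a1 at 0.095.

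All 5 basement membrane chains tested were lower in polysome mRNA, beside the same 38.4% of all genes, with a median log2 ratio of -0.66. Col4a5 had 23.7 to 42.9 TPM in polysome mRNA and 71.1 to 82.5 TPM in total mRNA (log2 ratio -1.39, SE 0.12, adjusted p = 1.83e-06), and its neighbour Col4a6 had 10.7 to 19.2 TPM in polysome mRNA and 26.5 to 35.2 TPM in total mRNA (log2 ratio -0.85, SE 0.12, adjusted p = 9.74e-05). Neither range overlapped between the fractions. The linked Col4a1 and Col4a2 had log2 ratios of -0.62 and -0.54, within 1 SE of each other.

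Chains with short or interrupted helices fell on both sides. Col26a1, a small collagen with an EMI domain, had the highest ratio that passed, with 13.6 and 7.24 TPM in LF, 17.3 and 17.7 TPM in MF, and 15.9 and 14.9 TPM in HF polysome mRNA. In total mRNA it had 5.82 and 8.26 TPM in LF, 8.43 and 8.34 TPM in MF, and 6.87 and 9.07 TPM in HF. Only the second LF polysome library lay within the range of the total libraries, and the log2 ratio was 1.29 (SE 0.15, adjusted p = 1.97e-05). Col6a2 (1.19, adjusted p = 0.000207) and Col6a1 (0.40, adjusted p = 0.044), 2 chains of the same trimer, and the multiplexin Col15a1 (1.15, adjusted p = 0.00701) were also higher in polysome mRNA. Among the FACIT chains 4 of 6 were lower (38.4% of all genes) and none higher, led by Col20a1 (-2.40, SE 0.33) and Col12a1 (-1.83, SE 0.12), while Col14a1 (1.21, adjusted p = 0.118) had at most 13 counts in any library. Col20a1 had a mean of 15.2 counts per library and shares its locus with BX649560.1 on the same strand, so its value is uncertain. Both transmembrane chains tested were lower, Col25a1 by a log2 ratio of -1.69 and Col23a1 of -0.41. Col7a1, the anchoring fibril chain of skin, had the lowest ratio at -2.76 (SE 0.32), from at most 0.04 TPM in polysome mRNA and at most 0.23 TPM in total mRNA.

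Transcript length moved with these ratios, and collagen mRNAs are long. The effective length, the number of positions where a fragment can start, had a median of 5224 bases in the 33 chains and 2310 bases in all genes tested. Over all genes the median log2 ratio was 0.47 for lengths under 1000 bases, 0.35 between 1000 and 2000 bases, -0.74 between 5000 and 6000 bases, where 11 chains lie, and -1.41 over 8000 bases. When this trend was removed, 20 of the 33 chains lay above it and 13 below, and their median became 0.31. Described across chains, which share libraries and differ in abundance, the ratio and length had a Pearson r of -0.38 and a Spearman rho of -0.44 (33 chains), and across all 14421 genes -0.23 and -0.41. Col4a1, Col4a2, Col4a4, Col4a6, Col5a2, Col5a3, Col8a1 and Col23a1 lay below 0 as measured and above the trend, so their lower level in polysome mRNA did not exceed that of other genes of their length. Those that stayed furthest below the trend were Col20a1 (-1.98), Col7a1 (-1.58), Col27a1 (-1.34), Col11a2 (-1.23) and Col9a3 (-0.92). Of these, Col20a1, Col7a1, Col11a2 and Col9a3 had at most 38, 21, 16 and 38 counts in any library, so their values rest on few reads. Col26a1 (1.31), Col15a1 (1.48) and Col6a2 (1.66) stayed well above the trend. Col14a1 lay highest above it (1.97), from at most 13 counts in any library. What sets the length trend was not tested.

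**Figure D4:**
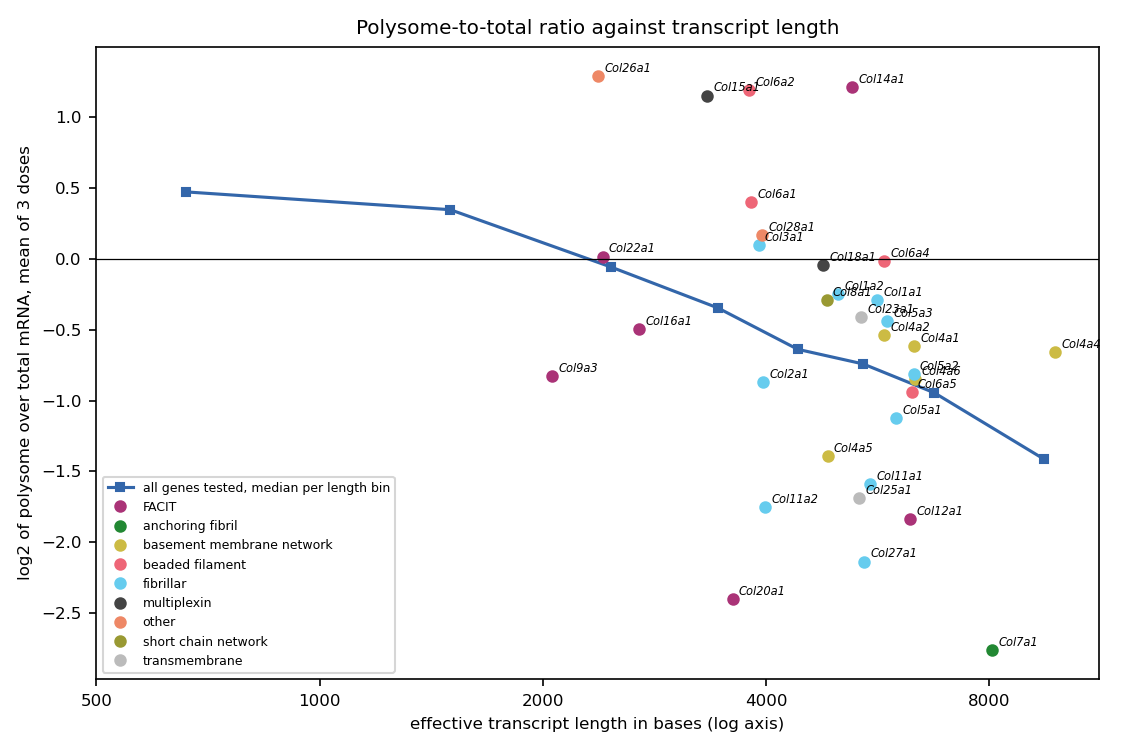
Log2 ratio of polysome to total mRNA over the 3 doses against effective transcript length (log axis) for the 33 collagen chains, coloured by class, with the median of all genes tested in 8 length bins joined by the line. The median falls with length, most chains lie at 3000 bases or more, and 20 of the 33 lie above the trend of all genes.

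The length that RSEM assigned to a gene, which weights its annotated transcripts by their estimated shares, also differed between fractions for some chains. It was shorter in every polysome library than in any total library for 5 of the 33 chains (Col4a5, Col5a1, Col11a1, Col12a1 and Col16a1), beside 8.37% of all genes, and longer for 5 others (Col1a2, Col4a2, Col5a2, Col5a3 and Col26a1), beside 12.3% of all genes. The widest gap was in Col12a1, with 3458 to 4046 bases in polysome mRNA and 8541 to 9988 bases in total mRNA. Col11a1 had 4121 to 4376 bases in polysome mRNA and 7125 to 7580 bases in total mRNA. For the 5 chains with shorter polysome lengths the ratio of TPM was nearer to 0 than the ratio of counts. The log2 ratio of mean TPM was -0.69 for Col12a1, where counts gave -1.83, and -1.07 for Col11a1, where counts gave -1.59. Of the 5 with longer polysome lengths, 4 went the other way, with a log2 ratio of mean TPM of -0.59 for Col1a2 (counts -0.25), -1.03 for Col4a2 (counts -0.54), -1.12 for Col5a2 (counts -0.82) and -0.68 for Col5a3 (counts -0.44). Col26a1 had a log2 ratio of 0.89 in mean TPM and 1.29 in counts. Chains with the same assigned length in every library had a gap in this direction too. Col8a1 had a log2 ratio of -0.60 in mean TPM and -0.29 in counts, and Col1a1 had -0.54 and -0.29. The part of assigned length in these gaps was not tested.

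Genes that modify and fold collagen were mostly higher in polysome mRNA. Over all genes 32.7% were higher and 38.4% lower. Of 21 genes for modification and folding in the endoplasmic reticulum, 17 were higher in polysome mRNA, none was lower and the median log2 ratio was 0.91, a value that stayed at 0.92 with the length trend removed. Serpinh1, which encodes HSP47, had a log2 ratio of 2.15 (SE 0.075), Ppib, a prolyl isomerase, of 1.58 (SE 0.064), P4hb, a subunit of prolyl 4-hydroxylase, of 1.2 (SE 0.070), and P4ha1, its catalytic partner, of 1.15 (SE 0.093). Of 12 genes for secretion and collagen mRNA binding, 6 were higher and 1 lower, with Sar1b, a small GTPase of transport vesicles, at 1.26 and the cargo receptor Mia3 at -0.19 (adjusted p = 0.055). Processing and crosslinking enzymes went both ways, with 6 of 16 higher, among them Pcolce, an enhancer of procollagen cleavage, at 1.40, and 8 lower, among them Pxdn, which crosslinks type IV collagen, at -0.58. The share of these enzymes that was higher was near that of all genes. Of 10 collagen receptors tested, 4 were lower, including the integrin chain Itga2 at -3.36, and 2 were higher, including Itgb1 at 0.73, and the lower share was near that of all genes. Of 14 basement membrane partners tested, 6 were higher, such as Sparc at 1.08 and Lama4 at 1.302, and 5 were lower, such as Hspg2 (perlecan) at -2.05, with the lower share again near that of all genes.

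Few genes of these groups were called between doses in total mRNA. In HF against LF, none of the 21 modification and folding genes and none of 11 secretion genes was called, beside 1.79% of all genes. The absence of calls in groups of this size is near that share. Their median log2 fold changes were -0.019 and 0.047. Loxl2, a lysyl oxidase that crosslinks collagen, rose (0.71, adjusted p = 0.00212), Itga2, a collagen-binding integrin chain, rose (0.65, adjusted p = 0.0339), and Nid2, which links type IV collagen to laminin, fell by 0.46 on the log2 scale (adjusted p = 0.0124). In HF against MF and in LF against MF, no gene of the 5 groups was called, beside 0.0863% and 0.00719% of all genes. Among the NSC markers, Fabp7 (log2 fold change 0.43, adjusted p = 0.00121) and Slc1a3 (0.27, adjusted p = 0.00153) rose in HF against LF.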

How the data were processed

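Total and polysome poly(A) mRNA of NSCs at 3 folic acid doses was sequenced in 12 libraries. Per the labels, the authors aligned reads with Bowtie2 2.2.9 and quantified genes on mm10 with RSEM 1.3.0, replicates apart. The annotation and strand setting of that step are not given in the sources used here. The deposited tables hold expected counts, TPM, FPKM and isoform-weighted lengths per gene, and FPKM was not used. Between 4.04% and 5.95% of the expected counts per library that the authors deposited were not whole, and all were rounded. No column belonged to another series. Of 43432 identifiers, 42548 matched GENCODE M21, which gave names, positions and transcript sequences.

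The test was that of edgeR 4.0.16 under R 4.3.3 (TMM scaling, filterByExpr, robust quasi-likelihood F test, Benjamini-Hochberg adjustment over all genes tested). Calls required an adjusted p below 0.05 together with a change of more than 1.2-fold. Dose comparisons used the 6 libraries of a fraction (3 residual degrees of freedom), and TE and the polysome-to-total ratio used all 12 (6 residual degrees of freedom). The test was checked on simulated counts. Alternatives were DESeq2 1.42.0, its size factors in edgeR, limma voom 3.58.1, no filter, the replicate number as a term, the compared libraries only, each library left out, and removal of the trend of the ratio on log10 effective length (lowess, span 0.3). The comparison of assigned lengths between fractions and the TPM ratios were added after seeing the data. Library totals of 20506797 to 28170296 counts carry no molecular identifiers, so counting limits cover counting error only.

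The members and gene lists were chosen with earlier results of these data known. Named chains had a group mean of 5 TPM or more, were called in any comparison, or were Col4a6 or Col8a1. Of each pathway list, called members and the 2 most abundant could be named, and the other chains, Mia3 and the markers named were chosen after their values were seen. Xtail, which the authors used for TE, was not used here.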

Additional observations from a re-analysis of the deposited data

How the results depend on the processing

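Calls of collagen chains between doses depended on the tool and on single libraries. In total mRNA, HF against MF, where 1 chain was called, DESeq2 gave 3, limma voom 2, no filter on low counts 4, the compared libraries only 3, and leaving out 1 library 0 to 4. LF against MF in total mRNA, with none called, gave 1 without the filter (Col27a1) and 0 to 2 with a library left out. HF against LF in total mRNA, with 5 called, gave 2 to 8 with a library left out. In polysome mRNA, LF against MF gave 2 with DESeq2, 1 without the filter and 0 to 19 with a library left out, and HF against LF gave 2 with DESeq2 and 0 to 13. For TE, HF against MF gave 1 with the compared libraries only (Col8a1) and 0 to 2 with a library left out. TE in LF against MF gave 2 with DESeq2 and 0 to 18, and TE in HF against LF gave 1 with DESeq2 size factors in edgeR, 2 with DESeq2, 1 without the filter and 0 to 13. The highest polysome and TE counts involving LF came without the first LF polysome library. Polysome against total mRNA in LF, with 20 called, gave 4 with the compared libraries only and 13 to 25 with a library left out. The cause was not tested.

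Removing the length trend turned the median log2 ratio of the chains to 0.31. It turned the ratios of Col23a1 to 0.38, Col4a1 to 0.32, Col4a2 to 0.31, Col4a4 to 0.73, Col4a6 to 0.093, Col5a2 to 0.12, Col5a3 to 0.42 and Col8a1 to 0.40.

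Deviations of same-numbered libraries from their group means correlated at -0.139 to 0.139. With 2 libraries a group and a large spread between polysome replicates, such low values cannot decide whether the libraries were paired. With the replicate block, 4 chains were called in total HF against MF, 1 in total LF against MF (Col27a1) and 1 in polysome LF against MF (Col16a1), and the median ratio with the block and the length trend removed was 0.31. With 2 libraries a group, differences in polysome mRNA were harder to detect than in total mRNA, where the spread was smaller.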
